A study of Mus musculus with 15 samples.

Results

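The dynamins, the amphiphysin family and Speg were described in the shin muscle tibialis anterior from 15 mice sequenced as stranded poly(A) mRNA libraries. The members are 7 genes given by name: the dynamins Dnm1, Dnm2 and Dnm3, the BAR-domain genes Bin1, Bin3 and Amph, and the kinase gene Speg. All 7 were found by symbol among the 30672 genes counted, and all 7 were among the 15533 genes with enough reads to be tested. The mice were male, of strain 129Pas and 7 weeks old. They formed 4 groups: untreated wild-type mice (WT, n = 4), wild-type mice given tamoxifen (WT + TAM, n = 4), mice lacking the phosphatase gene Mtm1 (Mtm1-/y, n = 4) and such mutants given tamoxifen (Mtm1-/y + TAM, n = 3). The labels give neither the dose, start and length of the treatment nor the deleted part of Mtm1, and no other allele or agent. They do not say that replicates came from separate litters, so p-values describe the spread between these libraries.

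Dynamins are large GTPases that assemble into a helix around the neck of a membrane bud and constrict it until it is cut. Amphiphysins carry a banana-shaped BAR domain that binds curved membrane, and BIN1 and amphiphysin also carry an SH3 domain that recruits dynamin. In skeletal muscle BIN1 shapes the transverse tubules, the inward folds of the plasma membrane that carry the action potential, and SPEG is a giant kinase of the triad, where these tubules meet the sarcoplasmic reticulum. Myotubularin, the product of Mtm1, removes a phosphate from phosphoinositide lipids. Mutations of MTM1, DNM2, BIN1 and SPEG each cause a centronuclear myopathy in humans, which is why these genes are considered together.

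Libraries held 18042558 to 45823277 counted reads. Values are CPM, counts scaled to library size and TMM factor, and a gene was called when its adjusted p, by edgeR's quasi-likelihood test with Benjamini-Hochberg adjustment over all tested genes, was under 0.05. The deleted gene checked the labels: Mtm1 averaged 15.3 ± 0.294 CPM over WT libraries and 3.36 ± 0.338 CPM over Mtm1-/y libraries (SD, n = 4 each), with 13.5 to 17.7 CPM in WT + TAM and 3.04 to 3.71 CPM in Mtm1-/y + TAM. Summed levels of 8 fast myofibre markers were 143597 to 243825 CPM. A pair of libraries stood apart. WT + TAM replicate 1 had a summed level of 3555 CPM for 5 fibroblast markers, against 330 to 1474 CPM in the other libraries, and 1058 CPM for 6 slow fibre markers. Its sums for 10 Schwann cell and nerve markers, 200 CPM, and for 4 adipocyte markers, 37.2 CPM, were also the highest. Mtm1-/y replicate 1 had the lowest fibroblast sum, 330 CPM, and differed most from the other libraries of its group. Calls that change without them are named below.

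The 3 dynamin genes share a feature of position. Each holds a miRNA gene of the miR-199 family within its span on the opposite strand. The GRCm38.p6 entries of RefSeq place Mir199b in Dnm1 (mature miR-199b-3p at chr2:32318524-32318545, + strand), Mir199a-1 in Dnm2 (miR-199a-3p at chr9:21496498-21496519, - strand), and Mir199a-2 together with Mir214 in Dnm3 (miR-199a-3p at chr1:162217883-162217904 and miR-214-3p at chr1:162223438-162223459, + strand). None of them overlaps an exon of its dynamin gene. The mature sequences are printed 5′ to 3′ with the seed, bases 2 to 8, in capitals, to show that the miR-199 product of the 3p arm is the same at all 3 dynamin loci.
miR-199b-3p (in Dnm1): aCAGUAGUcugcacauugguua
miR-199a-3p (in Dnm2 and in Dnm3): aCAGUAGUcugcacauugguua
miR-199a-5p (in Dnm2 and in Dnm3): cCCAGUGUucagacuaccuguuc
miR-214-3p (in Dnm3): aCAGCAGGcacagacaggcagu
Poly(A) libraries do not measure mature miRNAs. Dnm3os, the long noncoding host transcript of Mir199a-2 and Mir214, was counted as its own gene, averaging 2.27 ± 0.529 CPM over WT libraries and 2.54 ± 0.967 CPM over Mtm1-/y libraries (SD, n = 4 each).

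Compared per length, the members spanned levels from Bin1 to Amph. In WT, levels in CPM per kilobase of merged exons (RPKM) were 136 ± 9.14 for Bin1, 30.9 ± 4.08 for Speg, 10.7 ± 0.239 for Dnm2, 3.19 ± 0.246 for Bin3, 1.41 ± 0.237 for Dnm1, 0.299 ± 0.0185 for Dnm3 and 0.204 ± 0.0306 for Amph (SD, n = 4). No neighbours in this order overlapped among the WT libraries. The length used matters for Dnm3, whose merged exons span 24452 bases against 4601 for its principal transcripts. With principal transcript lengths the WT order was the same, but the lowest Dnm1 library, 1.56 RPKM, then lay inside the Dnm3 range of 1.51 to 1.73 RPKM, so the order of Dnm1 and Dnm3 does not hold beyond their spread. Dnm2, the dynamin found in every tissue, made up 86.2 ± 1.91% of the summed RPKM of the 3 dynamins in WT and 88.7 ± 5.21% in Mtm1-/y (SD, n = 4 each).

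**Figure D1:**
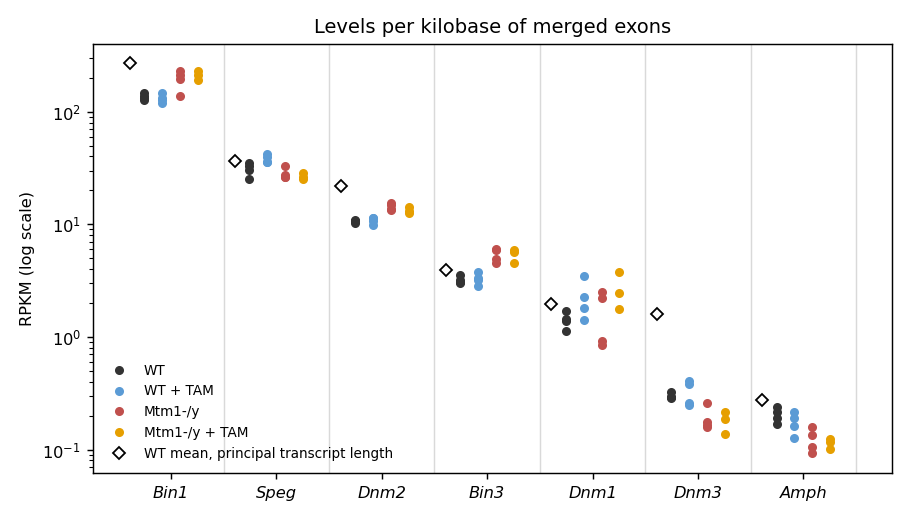
RPKM per library on a log axis for the 7 members, with points coloured by group (n = 4, 4, 4 and 3) and open diamonds for the WT mean when principal transcript lengths are used. Bin1 lies highest at a WT mean of 136 and Amph lowest at 0.204, and the diamond is farthest from the points for Dnm3.

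Loss of Mtm1 was compared first in untreated muscle. Between Mtm1-/y and WT, 5 of the 7 members were called, Dnm2, Bin1 and Bin3 higher and Dnm3 and Amph lower, where 30.4% of all tested genes were called, 15.5% higher and 14.9% lower. Dnm1 and Speg were not called. Libraries of the 2 groups did not overlap for 4 of the 7, Dnm2, Dnm3, Bin3 and Amph, as for 30.5% of tested genes. The 3 genes that rose kept their calls in 17 alternative fits, though 0 members passed when a log2 fold change over 1 was also required, while the calls of Dnm3 and Amph depended on single libraries, as given below. In whole muscle, fewer cells of a type and less RNA per cell cannot be told apart.

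**Figure D2:**
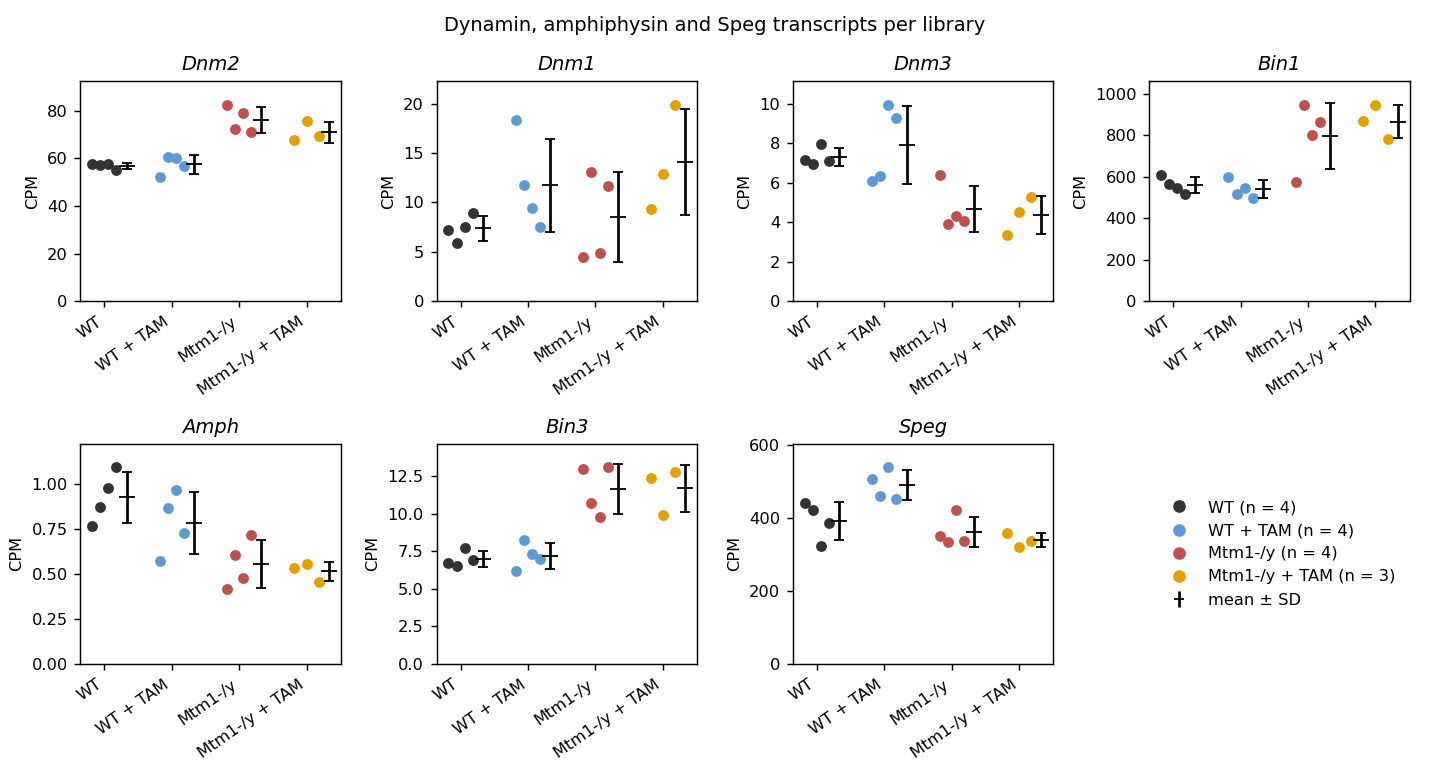
CPM of each member (vertical axes, from 0) in the 15 libraries, 1 point per mouse in the order of replicate number, with the group mean ± SD as a bar beside the points. Dnm2 and Bin3 lie higher in both Mtm1-/y groups than in both WT groups without overlap, and the Mtm1-/y point of 573 CPM for Bin1 lies among the WT points.

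Dnm2 (chromosome 9, 21424908 to 21507759, + strand, GRCm38) varied least of the members in WT, with a coefficient of variation of 2.24%. WT libraries had 57.7, 57.4, 57.5 and 55 CPM, and Mtm1-/y libraries 82.6, 72.2, 78.9 and 71.2 CPM. Every Mtm1-/y library was above every WT library, by a fitted 1.34-fold (log2 fold change 0.42, SE 0.077, adjusted p = 0.00098). With tamoxifen the values were 52.1, 60.6, 60.2 and 57 CPM in WT + TAM and 67.6, 75.7 and 69.5 CPM in Mtm1-/y + TAM. These groups also did not overlap, with a log2 difference of 0.30 (SE 0.083, adjusted p = 0.0182). That call was lost without Mtm1-/y + TAM replicate 2 (0.25, adjusted p = 0.101) and without the filter on low counts (0.31, adjusted p = 0.0736). Tmed1, on the opposite strand, shares 207 exon bases with Dnm2, and it differed by -0.10 between Mtm1-/y and WT (adjusted p = 0.596). Whether counting used the strand is not given, so reads from shared bases cannot be assigned here or for the other overlaps named below.

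The window of 250 bases before the Dnm2 start, shown because Dnm2 and Dnm3 differed in opposite directions between the genotypes, is given from RefSeq (GRCm38.p6, chr9:21424658-21424907, + strand) with the match to the GC box GGGCGG, read on either strand, in capitals.
Dnm2: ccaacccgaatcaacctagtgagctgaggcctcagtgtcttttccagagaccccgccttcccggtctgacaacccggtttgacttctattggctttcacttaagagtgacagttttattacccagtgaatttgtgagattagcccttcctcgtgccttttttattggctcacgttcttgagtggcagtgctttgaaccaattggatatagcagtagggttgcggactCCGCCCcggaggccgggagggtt
The same window of Dnm3 (chr1:162478035-162478284, - strand) held no match to GGGCGG, to the E-box CAGCTG or to the TATA box TATAAA.
Dnm3: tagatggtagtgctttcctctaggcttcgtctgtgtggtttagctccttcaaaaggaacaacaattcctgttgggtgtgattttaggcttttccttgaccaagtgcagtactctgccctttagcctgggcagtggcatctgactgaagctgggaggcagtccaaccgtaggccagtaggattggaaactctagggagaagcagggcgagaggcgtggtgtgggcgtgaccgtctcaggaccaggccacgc
The Dnm2 window held 1 GC box and none of the other motifs, and its GC content was 51.2%, against 54% for Dnm3 and a median of 52.4% over 32851 such windows. GC boxes were found in 32.7% of all windows, CAGCTG in 13% and TATAAA in 12.4%. These matches describe the letters of the windows and were not tied to binding.

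Dnm3 (chromosome 1, 161982453 to 162478034, - strand) went the other way. Its CPM values were 7.16, 6.95, 7.97 and 7.13 in WT and 6.38, 3.91, 4.32 and 4.05 in Mtm1-/y, from 97 to 291 reads. All Mtm1-/y libraries were below all WT libraries, replicate 1 by the least. Dnm3 fell to 0.641 times its WT level (log2 fold change -0.64, SE 0.20, adjusted p = 0.0228), and without Mtm1-/y replicate 1 the value was -0.83 (adjusted p = 0.00414). The call was lost without WT replicate 3 or without Mtm1-/y replicate 2, 3 or 4, with adjusted p from 0.0562 to 0.0641 and log2 fold changes from -0.60 to -0.57. Under tamoxifen, WT + TAM libraries had 6.09, 6.37, 9.96 and 9.3 CPM and Mtm1-/y + TAM libraries 3.34, 4.53 and 5.26 CPM, again without overlap (log2 fold change -0.85, SE 0.22, adjusted p = 0.0128). Leaving out Mtm1-/y + TAM replicate 1 ended this call (-0.70, adjusted p = 0.0623). Dnm3os, which lies in an intron of Dnm3 on the opposite strand, was not called between Mtm1-/y and WT (0.16, SE 0.41, adjusted p = 0.795). Gm10176 and 2810442N19Rik, also on the opposite strand, share 355 and 42 exon bases with Dnm3. They had at most 1 and 5 reads in any library.

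Dnm1 (chromosome 2, 32308471 to 32353338, - strand), the dynamin best known from neurons, varied most. WT libraries had 7.21, 5.89, 7.52 and 8.92 CPM, and Mtm1-/y libraries 4.47, 13.1, 4.86 and 11.7 CPM. The Mtm1-/y values lay on both sides of the WT range, and the difference of 0.20 on the log2 scale had a 95% interval of -0.60 to 1.01 (adjusted p = 0.718). WT + TAM libraries had 18.3, 11.8, 9.41 and 7.47 CPM and Mtm1-/y + TAM libraries 9.38, 12.9 and 19.9 CPM. The coefficient of variation was 16.8% in WT and 38.1 to 52.7% in the other groups. Fibroblast marker sums, in the same order, were 728, 727, 833 and 885 CPM for the WT libraries, 3555, 916, 537 and 1474 CPM in WT + TAM, 330, 885, 578 and 1378 CPM in Mtm1-/y and 596, 1361 and 731 CPM in Mtm1-/y + TAM. The Mtm1-/y libraries with more Dnm1 were the 2 with the higher fibroblast sums, whereas the highest Dnm1 value of all, 19.9 CPM, had a sum of 731 CPM. Schwann cell and nerve marker sums were highest, at 200 CPM, in the WT + TAM library with 18.3 CPM of Dnm1. The library with 19.9 CPM of Dnm1 had a sum of 108 CPM. The part of either marker set in the Dnm1 values was not tested.

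Bin1 (chromosome 18, + strand), whose product bends the transverse tubule membrane, was the most abundant member. WT libraries had 608, 566, 545 and 519 CPM and Mtm1-/y libraries 573, 948, 801 and 866 CPM. Mtm1-/y replicate 1 lay within the WT range, and the other Mtm1-/y libraries were above it. Bin1 was 1.42-fold higher (log2 fold change 0.51, SE 0.13, adjusted p = 0.01), and the difference was 0.64 without Mtm1-/y replicate 1 (adjusted p = 0.000411). Under tamoxifen the groups did not overlap, with 599, 519, 547 and 496 CPM in WT + TAM and 869, 945 and 784 CPM in Mtm1-/y + TAM (log2 fold change 0.68, SE 0.14, adjusted p = 0.00433). The counts sum all transcripts of the gene, so the muscle exon of Bin1 and its splicing were not measured. Of the 50-base stretches of its transcripts, 4.93% also occur in A830052D11Rik, a noncoding gene on the opposite strand, which had 2.39 ± 0.667 CPM in WT (SD, n = 4) and was not called between Mtm1-/y and WT (0.23, adjusted p = 0.434).

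Bin3 (chromosome 14, 70100105 to 70138206, + strand), a short relative that has the BAR domain but no SH3 domain, had the largest rise. WT libraries had 6.72, 6.52, 7.74 and 6.95 CPM and Mtm1-/y libraries 13, 10.7, 9.82 and 13.1 CPM. The groups were well apart, with a fitted 1.67-fold rise (log2 fold change 0.74, SE 0.13, adjusted p = 0.00069). WT + TAM libraries had 6.17, 8.26, 7.31 and 6.98 CPM and Mtm1-/y + TAM libraries 12.4, 9.9 and 12.8 CPM, with a log2 difference of 0.70 (SE 0.14, adjusted p = 0.00278). Ccar2, on the opposite strand with 43 shared exon bases, moved the other way, by -0.26 between Mtm1-/y and WT (SE 0.074, adjusted p = 0.0155).

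Amph (chromosome 13, 18948205 to 19150921, + strand), whose product is known from synapses, had the fewest reads. It had 31, 22, 22 and 37 reads in WT and 16, 15, 15 and 32 reads in Mtm1-/y, that is 0.763, 0.869, 0.974 and 1.09 CPM against 0.418, 0.605, 0.477 and 0.717 CPM. The groups did not overlap, and the fitted difference was -0.73 on the log2 scale (SE 0.25, adjusted p = 0.0408). The call was lost in 10 of 16 alternatives, among them DESeq2 (-0.71, adjusted p = 0.0611), a fit without the count filter (-0.71, adjusted p = 0.156) and the omission of any of 6 single libraries, WT replicate 2, 3 or 4 or Mtm1-/y replicate 1, 2 or 3 (adjusted p 0.0584 to 0.108). WT + TAM libraries had 0.572, 0.867, 0.965 and 0.725 CPM and Mtm1-/y + TAM libraries 0.53, 0.556 and 0.453 CPM, a difference of -0.62 that was not called (SE 0.28, adjusted p = 0.139).

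Markers of endothelial cells, which line blood vessels, were lower in the same groups as Dnm3 and Amph. Over all tested genes 14.9% were called lower between Mtm1-/y and WT and 9.46% between Mtm1-/y + TAM and WT + TAM. Of 6 endothelial markers, 5 and 3 were called lower in these comparisons, with median log2 fold changes of -0.80 and -0.65. Their summed level was 393 to 518 CPM for WT libraries, 208 to 310 CPM for Mtm1-/y and 226 to 278 CPM in Mtm1-/y + TAM. In WT + TAM it was 428 to 491 CPM in 3 libraries and 258 CPM in replicate 1, the wild-type library with the least Amph (0.572 CPM) and the least Dnm3 (6.09 CPM). Within Mtm1-/y, Dnm3 did not follow the sums. Replicate 1 had the most Dnm3 (6.38 CPM) at a sum of 229 CPM. Replicate 4 had the highest sum, 310 CPM, with 4.05 CPM of Dnm3 and the most Amph of its group (0.717 CPM). None of the 6 markers was at 0 in all libraries. Of 6 smooth muscle and pericyte markers, 2 were lower in Mtm1-/y and 4 in Mtm1-/y + TAM than in the matching wild-type group, with sums of 540 to 681 CPM in WT, 440 to 599 CPM in WT + TAM, 352 to 457 CPM in Mtm1-/y and 319 to 408 CPM in Mtm1-/y + TAM. Of 4 satellite cell markers, 2 were lower in Mtm1-/y and 1 in Mtm1-/y + TAM, with median log2 fold changes of -0.95 and -0.94. Their sums overlapped, at 39 to 43.3 CPM in WT and 28.9 to 48.3 CPM in Mtm1-/y. Fast myofibre markers had 2 of 8 lower in Mtm1-/y, with a median log2 fold change of -0.29. Of 6 slow fibre markers 1 was lower, whereas the median of that list was 1.20. The slow fibre sums overlapped, at 24.7 to 47.5 CPM in WT and 32.6 to 42.7 CPM in Mtm1-/y. Higher there were 2 of 8 Schwann cell and nerve, 1 of 5 fibroblast and 1 of 6 macrophage markers. The medians of these lists were 0.19, -0.016 and 0.35. The part of any of these cells in the Dnm3 and Amph values was not tested.

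**Figure D3:**
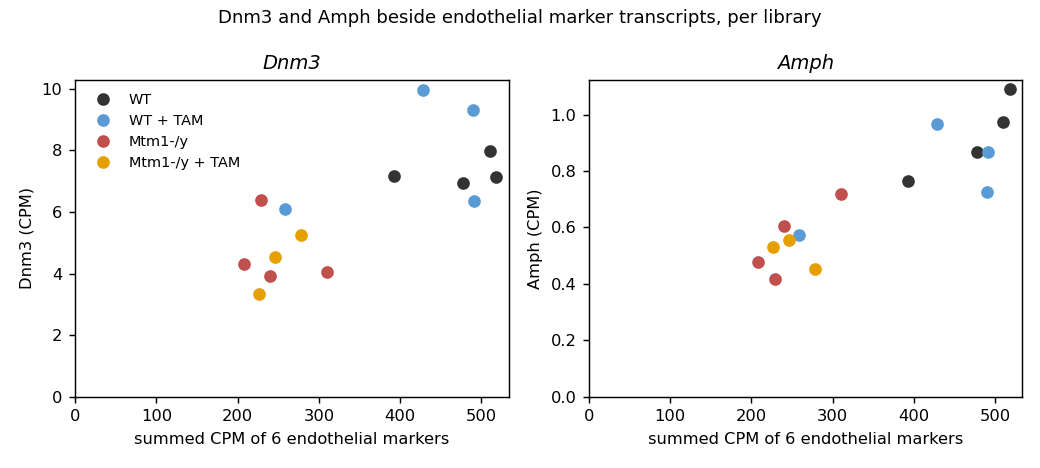
Dnm3 (left) and Amph (right) in CPM against the summed CPM of 6 endothelial markers, 1 point per library coloured by group, with both axes from 0. The 7 Mtm1-/y and Mtm1-/y + TAM libraries have sums of 208 to 310, and WT + TAM replicate 1, at 258, lies among them.

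Speg (chromosome 1, 75375297 to 75432320, + strand) did not differ detectably between the genotypes without tamoxifen. WT libraries had 442, 423, 324 and 386 CPM and Mtm1-/y libraries 351, 335, 423 and 338 CPM. The groups overlapped, with a log2 fold change of -0.12 (95% interval -0.36 to 0.12, adjusted p = 0.44). WT + TAM libraries had 508, 460, 540 and 454 CPM and Mtm1-/y + TAM libraries 360, 322 and 337 CPM. Here every mutant library was below every wild-type library, with a log2 difference of -0.53 (SE 0.12, adjusted p = 0.00801) that was kept in 16 of 16 alternative fits. All WT + TAM libraries were also above all WT libraries, by 0.32 on the log2 scale (95% interval 0.075 to 0.56), which was not called (adjusted p = 0.288 by edgeR). The difference between the genotype effects with and without tamoxifen was -0.41 (SE 0.17) and was not called either (adjusted p = 0.424 by edgeR).

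With tamoxifen present, 5 of the 7 members were called between Mtm1-/y + TAM and WT + TAM, against 20.1% of all tested genes, 10.6% higher and 9.46% lower: Dnm2, Bin1 and Bin3 higher, and Dnm3 and Speg lower. Groups did not overlap for 6 members, all but Dnm1, as for 31.6% of tested genes. Between Mtm1-/y + TAM and untreated WT, 5 of 7 were called, against 23.3% of tested genes, 11.9% higher and 11.3% lower. There Bin3 differed by 0.74 (SE 0.14, adjusted p = 0.00157), Bin1 by 0.63 (SE 0.14, adjusted p = 0.00575), Dnm2 by 0.32 (SE 0.083, adjusted p = 0.0124), Dnm3 by -0.72 (SE 0.22, adjusted p = 0.0248) and Amph by -0.84 (SE 0.28, adjusted p = 0.041). The Amph call was lost in 9 of 15 alternatives, among them DESeq2 (adjusted p = 0.0533), no count filter (0.144), the replicate block (0.0692) and the omission of WT replicate 2, 3 or 4 or of any Mtm1-/y + TAM library (0.0657 to 0.141). Dnm3 lost its call without WT replicate 3 or Mtm1-/y + TAM replicate 1 or 2 (adjusted p 0.0559 to 0.107), and Dnm2 without the filter (0.0583) or without Mtm1-/y + TAM replicate 2 (0.0726). Dnm1 was higher in all 3 treated mutants than in every WT mouse, with a log2 difference of 0.93 (SE 0.40, adjusted p = 0.105). It passed the threshold when only those groups entered the fit (0.95, adjusted p = 0.0133) and without both libraries that stood apart (0.94, adjusted p = 0.0442). Neither of those libraries belongs to the groups compared. In 14 of 16 alternatives Dnm1 stayed uncalled, with values down to 0.60 and adjusted p up to 0.382 when libraries were left out. Groups that do not overlap were found for 6 of 7 members in this comparison, as for 41.4% of tested genes. These comparisons share libraries with the ones above and are not separate evidence.

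Tamoxifen itself moved no member past the threshold. In Mtm1-/y muscle 0 of 7 members were called, where 0.0129% of tested genes were. Adjusted p were 0.855 to 0.998 by edgeR, 0 members had an unadjusted p under 0.05, and DESeq2 and limma-voom called 0. In no member were the groups without overlap, as they were for 5.71% of tested genes. Dnm2 differed by -0.10 (95% interval -0.28 to 0.074), Bin1 by 0.12 (-0.19 to 0.43), Bin3 by 0.0046 (-0.29 to 0.30), Dnm3 by -0.084 (-0.54 to 0.38), Amph by -0.12 (-0.72 to 0.49) and Speg by -0.091 (-0.35 to 0.17). Dnm1 had the largest value, 0.73 (-0.12 to 1.58). In wild-type muscle 0 of 7 members were called as well, where 0.309% of tested genes were, with 1 member, Speg, at an unadjusted p under 0.05 and 0 called by DESeq2 or limma-voom. Speg was also the 1 member whose groups did not overlap, as for 8.08% of tested genes. Dnm2 differed there by 0.014 (-0.15 to 0.18), Bin1 by -0.05 (-0.33 to 0.24) and Dnm1 by 0.67 (-0.14 to 1.47). No member was called for the interaction of genotype with tamoxifen, where 0% of tested genes were called by edgeR, 1650 genes had an unadjusted p under 0.05, DESeq2 called 74 and limma-voom 0.

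**Figure D4:**
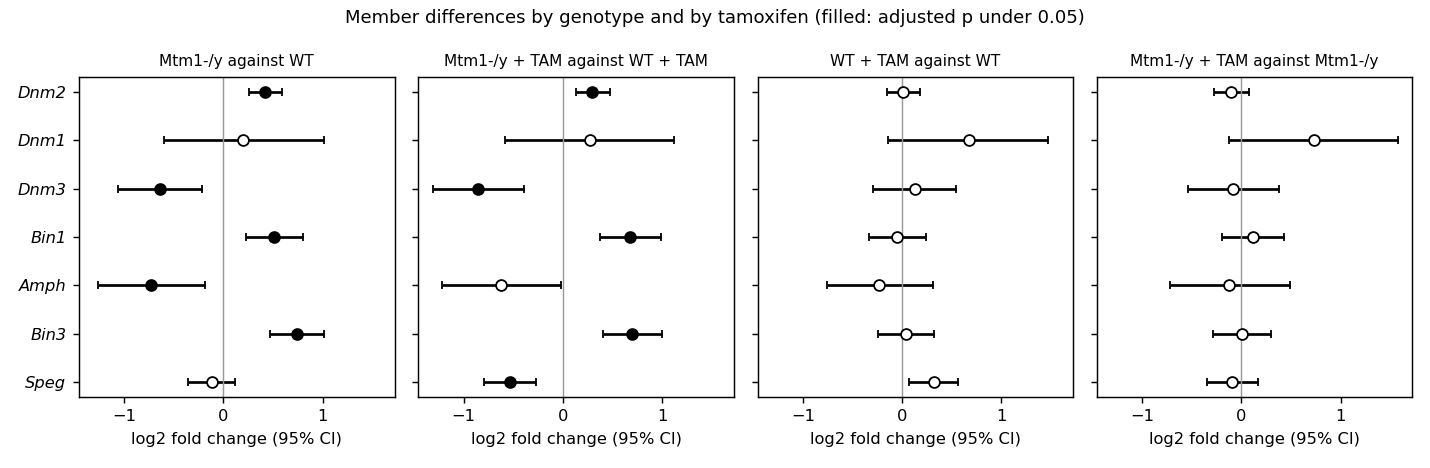
Log2 fold changes of the 7 members with 95% intervals (horizontal axes) in 4 comparisons, filled where the adjusted p was under 0.05. Filled points stand in the 2 genotype comparisons, 5 in each, and in neither tamoxifen comparison.

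Dnm2 and Bin1 rose together in the group means, so their balance was compared within each library. WT libraries held 10.5, 9.85, 9.47 and 9.44 Bin1 reads per Dnm2 read, and Mtm1-/y libraries 6.94, 13.1, 10.1 and 12.2. Mtm1-/y values lay on both sides of WT, and replicate 1, which had the most Dnm2 and the least Bin1 of its group, was lowest. WT + TAM libraries had 11.5, 8.57, 9.09 and 8.7 and Mtm1-/y + TAM libraries 12.9, 12.5 and 11.3. The log2 ratio of Dnm2 to Bin1 was -3.29 ± 0.074 in WT (SD, n = 4) and -3.36 ± 0.41 in Mtm1-/y (SD, n = 4), with p = 0.857 by a two-sided exact permutation test. It was -3.61 ± 0.10 in Mtm1-/y + TAM (SD, n = 3) and -3.23 ± 0.20 in WT + TAM (SD, n = 4), with exact permutation p = 0.0857 and 0.343 after adjustment over 4 comparisons. These 2 groups overlapped only through WT + TAM replicate 1, a library that stood apart. The difference was -0.38, and -0.47 without that library (adjusted p = 0.2 by the same test). With that library left out, the group sizes allow no p under the threshold, so the test could not call a difference there. With all libraries none of the 4 comparisons was past the threshold. The smallest p the full group sizes allow is 0.0286, or 0.114 for a single such comparison after adjustment over the 4.

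Genes of the same machinery were described from 5 lists, of which 59 genes were tested. Between Mtm1-/y and WT, 17 of them, or 28.8%, were called, near the 30.4% of all tested genes. The 17 include the deleted gene Mtm1, whose fall was set by the design. Among 22 genes of the clathrin coat, which shapes the buds that dynamin cuts, 8 rose and 0 fell, with a median log2 fold change of 0.19. Over all tested genes 15.5% rose and the median was 0.00047. Hip1r, which links coats to actin, averaged 13.1 ± 1.32 CPM over WT and 22.3 ± 6.79 CPM over Mtm1-/y libraries (log2 fold change 0.76, SE 0.19, adjusted p = 0.00692), and the clathrin light chain Clta 23 ± 1.81 and 36.8 ± 6.06 CPM (0.68, SE 0.12, adjusted p = 0.000948; SD, n = 4 each). The other 6 were Cltb, Epn1 and the AP-2 adaptor subunits Ap2a1, Ap2a2, Ap2m1 and Ap2s1, named after their values were seen, at 0.25 to 0.58. Cltc, the clathrin heavy chain, was at 0.11 (adjusted p = 0.509). Under tamoxifen 4 of the 22 coat genes were higher and 1 was lower in the mutants, where 10.6% of all tested genes were higher and 9.46% lower, and the list median was -0.032.

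Among 17 BAR and SH3 partners of dynamin, 1 rose and 3 fell, with a median of -0.10, where 15.5% of all tested genes rose and 14.9% fell. The same shares are the background of the lists that follow. Pacsin3, the muscle form of an F-BAR protein that binds dynamin, rose from an average of 307 ± 19.5 CPM to 464 ± 55.3 CPM (0.60, SE 0.10, adjusted p = 0.000628). Snx18, a BAR-domain sorting nexin, fell from 13.6 ± 1.02 to 8.95 ± 0.936 CPM (-0.60, SE 0.11, adjusted p = 0.000954), and the scaffold gene Itsn1 from 74 ± 5.97 to 59.6 ± 7.18 CPM (-0.31, SE 0.11, adjusted p = 0.0355; SD, n = 4 each). Snx9, named after its value was seen, was the remaining call at -0.24 (adjusted p = 0.0329). Of 5 other dynamin superfamily GTPases tested, 0 rose and 1 fell, with a median of -0.32: Opa1, which fuses inner mitochondrial membranes, averaged 152 ± 13.4 CPM over WT and 103 ± 17.8 CPM over Mtm1-/y libraries (-0.56, SE 0.12, adjusted p = 0.00281; SD, n = 4 each).

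Of 6 other centronuclear myopathy genes tested, Mtm1 among them, 1 rose and 2 fell, with a median of 0.048. Without Mtm1 the median of the other 5 was 0.07. The stress kinase gene Map3k20 averaged 292 ± 27.9 CPM over WT and 394 ± 13.7 CPM over Mtm1-/y libraries (0.43, SE 0.11, adjusted p = 0.00794), and Ttn, which encodes the sarcomere spring titin, 14101 ± 1742 and 10027 ± 1178 CPM (-0.49, SE 0.13, adjusted p = 0.0113; SD, n = 4 each). The other gene that fell was Mtm1 itself. Of 11 relatives and partners of the SPEG kinase, which include Ttn, 1 rose and 1 fell, with a median of -0.17. The one that rose was Des, the intermediate filament gene desmin, from 3128 ± 203 to 6581 ± 938 CPM (1.07, SE 0.12, adjusted p = 3.1e-05; SD, n = 4 each). Under tamoxifen 1 of these 11 genes was higher and 4 were lower in the mutants, with a median of -0.42. There 10.6% of all tested genes were higher and 9.46% lower, with a median of -0.017. Of the 59 list genes 0 were called by edgeR in either tamoxifen comparison, with 3 at an unadjusted p under 0.05 in Mtm1-/y and 5 in WT.

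**Figure D5:**
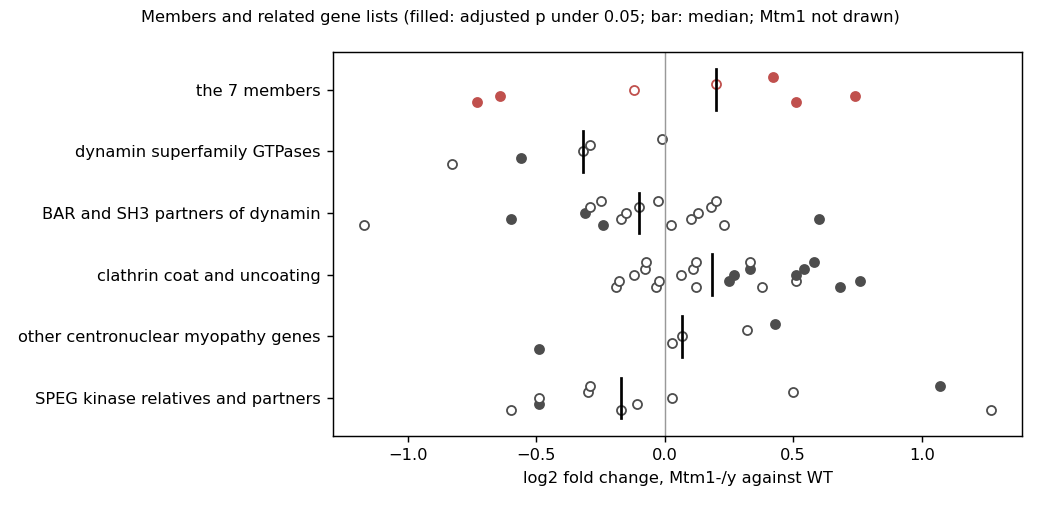
Log2 fold change between Mtm1-/y and WT (horizontal axis) for the 7 members and for 5 lists of related genes, filled where the adjusted p was under 0.05, with a bar at each median and vertical scatter only to separate points. In the clathrin list the 8 filled points all lie above 0. Mtm1, at -2.19, is neither drawn nor part of the median bar of its list.

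The genes whose log2 CPM followed each member most closely over the 15 libraries were listed by Pearson's r, as a description. They were Rps27l (0.961), Ik (0.958) and Rfx7 (0.957) for Dnm2, C1s1 (0.939), Abca9 (0.935) and Scara3 (0.922) for Dnm1, and Cdh23 (0.946), Aqp1 (0.939) and Prex2 (0.923) for Dnm3. For Bin1 they were Lamtor1 (0.965), Mpp1 (0.963) and Supt3 (0.963), and for Bin3 Chmp1b (0.97), Psmd6 (0.961) and Krt8 (0.955). For Amph they were Unc5b (0.956), Cd93 (0.944) and Cmtm6 (0.93), and for Speg Ccnk (0.93), Orc3 (0.913) and Prrc2b (0.907). The libraries share group, depth and composition, and each gene is the highest of all tested genes, so the values carry no test.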

How the data were processed

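RNA of tibialis anterior from 15 mice was sequenced as TruSeq stranded mRNA libraries. The authors deposited raw read counts per Ensembl gene, without normalization. HTSeq 0.6.1p1, STAR 2.5.3a, Bowtie2 2.2.8 and cutadapt 1.10 stand in the submitters' processing notes, with GRCm38 and mm10 as builds. Their strand setting is not given. Groups were taken from the labels, and all 15 columns were used. Symbols and exon lengths came from GENCODE M21, and RPKM was computed from TMM-scaled CPM.

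Counts were kept by filterByExpr (minimum count 10), scaled by TMM and fitted with edgeR 4.0.16 (R 4.3.3), as 4 group means over all libraries, with the robust quasi-likelihood test. The fit was also run, without the count filter, on counts simulated from its estimated spread. These held no library that stood apart, so the run does not cover such libraries. Ratios were compared by exact permutation. Named genes are the members, the 2 highest and 2 lowest called genes of each pathway list between Mtm1-/y and WT, and the 3 genes most like each member. The members, gene lists and tests were chosen with earlier results of these data known. Alternatives were RLE and upper-quartile factors, no filter and a stricter filter, DESeq2 1.42.0, limma-voom (limma 3.58.1), only the groups compared, a replicate block, a log2 fold change over 1, and the omission of libraries. Principal transcript lengths were added after seeing the data. No pair of libraries of the same group agreed within sampling noise, and pairs across groups were not compared. The depth leaves Amph with 10 to 40 reads per library, where 3 counts equal 0.0655 to 0.166 CPM.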

Additional observations from a re-analysis of the deposited data

Results flagged for a closer look

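Among 24 sets of 4 libraries, the 7 members and the Dnm2 to Bin1 ratio in each of 3 groups, 2 had a library far from the rest of its group by Dixon's test, where chance gives about 1 in 20. Dnm2 in WT replicate 4, at 55 CPM, was below the other WT libraries at 57.4 to 57.7 CPM, a gap that is small beside the difference from Mtm1-/y. Dnm3 in Mtm1-/y replicate 1, at 6.38 CPM, was above the other Mtm1-/y libraries at 3.91 to 4.32 CPM, and this library was also the one that stood apart in Bin1.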

How the results depend on the processing

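Between Mtm1-/y and WT, the calls of Dnm2, Bin1 and Bin3 were kept in 17 of 17 alternatives apart from the fold limit below (log2 fold changes 0.37 to 0.45, 0.42 to 0.64 and 0.68 to 0.83). Dnm3 lost its call in 4 and Amph in 10 of 16. The cause was not tested.

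Members called between Mtm1-/y and WT numbered 3 to 5 with 1 library left out, and 0 with a log2 fold change over 1 required. Between Mtm1-/y + TAM and WT they numbered 2 to 5 with 1 library left out, 3 without the filter and 0 over the fold limit, which also left 0 members between Mtm1-/y + TAM and WT + TAM. That limit left 1536, 934 and 1215 genes in the comparisons of Mtm1-/y with WT, of Mtm1-/y + TAM with WT + TAM and of Mtm1-/y + TAM with WT.

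Over all genes, tamoxifen in Mtm1-/y gave 2 calls, 1 without the filter, 4 by DESeq2, 1 with only the groups compared, 7 without Mtm1-/y replicate 1 and WT + TAM replicate 1, and 0 to 2 with 1 library left out. Tamoxifen in WT gave 48 calls, 298 by DESeq2, 347 without that pair and 11 to 111 with 1 library left out. The interaction gave 0, 2 without the filter, 74 by DESeq2, 14 without that pair and 0 to 7 with 1 library left out. The mutants under tamoxifen differed from WT + TAM in 1656 to 3339 genes and from WT in 2188 to 3068 genes with 1 library left out, and in 4600 and 5260 genes without that pair, when 6 members were called against WT.

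Levels with principal transcript lengths were 268 RPKM for Bin1, 36.5 for Speg, 21.8 for Dnm2, 3.95 for Bin3, 1.97 for Dnm1, 1.59 for Dnm3 and 0.274 for Amph in WT.

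Sign changes were limited to values that were not called. For tamoxifen in Mtm1-/y, Bin3 was at -0.0097 with RLE factors, -0.013 without the filter, -0.014 by DESeq2, -0.017 by limma-voom and -0.00071 with only the groups compared, and spanned -0.08 to 0.11 with 1 library left out, as did Dnm3 -0.24 to 0.11, Bin1 -0.0088 to 0.21 and Amph -0.24 to 0.046. Without the pair that stood apart, Dnm3 was at 0.11 and Bin1 at -0.0086. For tamoxifen in WT, Dnm2 was at -0.0015 with upper-quartile factors and spanned -0.011 to 0.059, Dnm3 -0.0056 to 0.24 and Bin3 -0.031 to 0.10 with 1 library left out. For the interaction, Bin3 was at 0.0079 with upper-quartile factors and Amph at -0.14 without the pair, and with 1 library left out Dnm1 spanned -0.27 to 0.37, Bin3 -0.12 to 0.073 and Amph -0.017 to 0.27. Dnm1 spanned -0.066 to 0.42 between Mtm1-/y and WT and -0.068 to 0.57 between Mtm1-/y + TAM and WT + TAM. The log2 ratio of Dnm2 to Bin1 between Mtm1-/y and WT spanned -0.26 to 0.047 with 1 library left out.

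Whether replicate numbers pair the samples was not tested. Deviations from the group means correlated at a mean of 0.0269 in 21 same-numbered pairs and -0.00916 in 63 others. Values over 0.1 were found in 6 of the 21 pairs (highest 0.306) and 10 of the 63 (highest 0.214). With the replicate block Amph between Mtm1-/y + TAM and WT was at -0.79 (adjusted p = 0.0692), and no other member's call changed. Depth limits Amph most, since its 10 to 40 reads per library leave wider 95% intervals than those of any member but Dnm1.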

Other observations

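Gm15179, a gene just upstream of Speg, was looked at after its values were seen. It averaged 12.6 ± 0.448 CPM over WT and 7.78 ± 0.49 CPM over Mtm1-/y libraries (SD, n = 4 each). The groups differed by -0.70 on the log2 scale (SE 0.12, adjusted p = 0.000507 by edgeR), where Speg itself was not called. Between Mtm1-/y + TAM and WT + TAM both genes were called lower by edgeR. Gm15179 differed there by -0.63 (SE 0.13, adjusted p = 0.00319) and Speg by -0.53 (SE 0.12, adjusted p = 0.00801).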
